A study of Homo sapiens with 6 samples.

Results

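The BCL2 family sets the threshold for apoptosis at the outer membrane of the mitochondrion, and 10 of its genes were followed here in leukaemia cells: the anti-apoptotic members MCL1, BCL2, BCL2L1 and BCL2A1 and the pro-apoptotic members BCL2L11, BBC3, PMAIP1, BAX, BAK1 and BID. The 4 anti-apoptotic and 6 pro-apoptotic members were chosen by name, found by their Entrez identifiers, and make up 10 of the 25420 genes and 22 of the 58136 3′ UTR entries that were counted. MOLM-13 is a cell line from a secondary acute myeloid leukaemia (sAML) that carries an MLL-AF9 fusion and an internal tandem duplication of FLT3. The cells received 10 µM C646, an inhibitor of the lysine acetyltransferase domain of CBP and p300, or the vehicle DMSO for 2 h, and all of them were labelled with 100 µM 4-thiouridine (4sU) during the last 1 h. There were 3 libraries of each group. Everything below comes from 1 cell line, 1 dose and 1 time point, and the labels do not say whether the replicates were separate cultures, so the p-values measure the spread between these libraries, which may be technical.

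The family works as a balance of binding partners. BAX and BAK1 encode the effectors that open the outer membrane and let cytochrome c out. The anti-apoptotic proteins hold the effectors and their activators in check, and the BH3-only proteins (BIM from BCL2L11, PUMA from BBC3, NOXA from PMAIP1, and BID) either occupy the anti-apoptotic proteins or activate the effectors. MCL1 is a short-lived protein made from a short-lived mRNA, NOXA binds it by preference, and myeloid leukaemia cells are known to depend on MCL1 and BCL2.

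In SLAM-seq, 4sU built into RNA during labelling is alkylated and then sequenced as C, so a read with a T > C conversion (T>C read) marks RNA made during labelling and all reads together mark total mRNA. The libraries held 7252597 to 10225448 reads on 3′ UTRs, of which 477824 to 833410 were T>C reads. T>C reads made up 8.74 to 8.86% of the reads in the DMSO libraries and 6.34 to 6.71% in the C646 libraries. Reads on 3′ UTRs made up 49.7 to 51.6% of the filtered reads with DMSO and 56.3 to 62.0% with C646, and a T>C read held 2.00 to 2.11 conversions on average with DMSO and 1.87 to 1.91 with C646. The part of these differences in the results was not tested. No library without 4sU was analysed here, so T>C reads include an unknown background of sequencing errors. Of 10 myeloid marker genes, 9 reached 1 CPM (read counts scaled to library size) in every library, and only CD14 was not. Of 13 markers of other cell types, 1 (CD3D) reached that level in every library and 6 were at 0 throughout; their summed level was 4.23 to 6.91 CPM with DMSO and 10.5 to 11.8 CPM with C646, and its part in the results was not tested. COL1A1 carried most of that difference (0.819 to 2.34 CPM with DMSO and 5.71 to 6.65 CPM with C646), and the other 12 markers summed to 3.41 to 4.57 CPM with DMSO and 3.81 to 5.48 CPM with C646.

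All values in CPM refer to reads on 3′ UTRs. Those of the cell type markers were scaled to each library's total of these reads. The others were scaled between libraries by TMM on all reads, so the T>C reads keep their loss against total mRNA. A gene is said to have risen or fallen where the adjusted p of edgeR's quasi-likelihood test was at most 0.01, and to have been called where its log2 fold change was also at least 1 in size. QuantSeq reads start from the poly(A) end, so a transcript gives reads at its 3′ end whatever its length, and the levels of members are set side by side without a length correction.

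In the DMSO libraries the family was unevenly expressed (the plots of CPM by library). In all reads BID was highest with 145 ± 0.548 CPM (SD, n = 3), followed by MCL1 with 122 ± 4.92, BBC3 with 108 ± 12.5 and BCL2 with 94.9 ± 3.74 CPM. The ranges of MCL1, BBC3 and BCL2 overlapped between neighbours in that order, and that of BID stood clear of them. PMAIP1 (31.8 ± 4.49 CPM) and BCL2L11 (23.1 ± 4.71 CPM) formed a middle tier. BAK1 (13.5 ± 1.74 CPM), BAX (12.7 ± 4.58 CPM), BCL2L1 (8.32 ± 2.42 CPM) and BCL2A1 (6.32 ± 1.75 CPM) were lowest, each overlapping the next. The order differed in T>C reads, where BBC3 (36.7 ± 5.04 CPM) and MCL1 (33.8 ± 1.85 CPM) led with overlapping ranges and BID came after PMAIP1 and BCL2 with 15.6 ± 2.09 CPM.

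**Figure D1:**
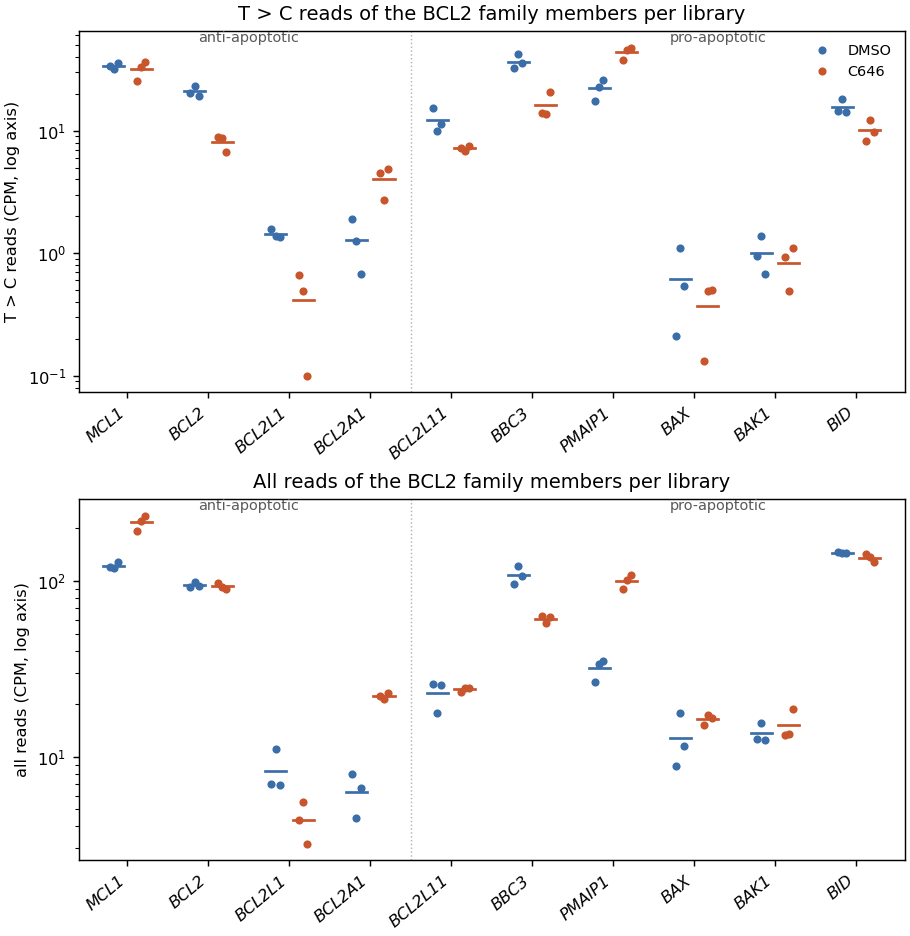
T>C reads (upper panel) and all reads (lower panel) of each member in CPM on log axes, with 1 point per library, 3 libraries per group and bars at the group means. The C646 libraries sit above the DMSO libraries for PMAIP1 and BCL2A1 in both panels, and for MCL1 in all reads only.

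The share of a gene's reads with a T > C conversion differed between members, the share being higher where more of the mRNA was made within the labelling hour. With DMSO it was 69.3 ± 4.09% for PMAIP1, 53.1 ± 7.79% for BCL2L11, 33.9 ± 0.769% for BBC3, 27.7 ± 0.807% for MCL1 and 22.00 ± 1.40% for BCL2 (SD, n = 3). BID followed with 10.8 ± 1.46%, BAK1 with 7.29 ± 1.76% and BAX with 4.45 ± 1.95%. Among the 2843 genes that averaged 50 or more T>C reads a library the median share with DMSO was 12.98%. Against these genes PMAIP1 stood at percentile 98.0, BCL2L11 at 95.0, BBC3 at 86.6, MCL1 at 80.2, BCL2 at 73.3 and BID at 40.4. PMAIP1, BCL2L11 and BBC3, 3 BH3-only genes that are switched by transcription, had the highest shares of the 10 members. BMF and BIK, BH3-only genes outside the 10, had shares of 25.8 ± 3.82% and 10.0 ± 1.86% with DMSO. The effectors BAX and BAK1 had the lowest shares, on only 2 to 10 T>C reads per DMSO library. Each of their DMSO libraries lay below each of BID, but the size of their shares is uncertain and includes the unknown background of sequencing errors. The shares of BCL2L1 (18.3 ± 5.24%) and BCL2A1 (20.8 ± 9.39%) rested on 5 to 18 T>C reads per DMSO library, overlapped each other and were too uncertain to be placed.

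The reads were counted on 3′ UTRs, which were searched for the AU-rich pentamer ATTTA, the core of elements known to mark short-lived mRNAs. In the most read entry of each gene (GRCh38, sense strand, other strand not searched) the pentamer occurred 13 times in BCL2 (5279 bases), 10 times in MCL1 (2824 bases), 8 times in BCL2L11 (4313 bases), 5 times in PMAIP1 (1553 bases), 3 times in BCL2L1 (1635 bases) and 2 times in BID (1440 bases), overlapping matches counted. No match was found in the 3′ UTR entries of BBC3 (980 bases), BAK1 (1257 bases), BCL2A1 (269 bases) or BAX (162 bases). At least 1 match is common: 74.4% of the 3′ UTRs of all 7722 genes tested in T>C reads held one, and among those within 25% of its length 23.1% had as many as MCL1 or more, 30.5% as many as PMAIP1, 41.6% as many as BCL2 and 61.7% as many as BCL2L11. One stretch of 30 bases is shown for each of the 4 members with the most matches, with each ATTTA in capitals and written 5′ to 3′ on the strand of the mRNA.
MCL1, chr1:150576217-150576246, minus strand: gacctaATTTAactggtgaaATTTAaagtg
BCL2, chr18:63128353-63128382, minus strand: gaaaaaaagATTTATTTATTTAagacagtc
BCL2L11, chr2:111167091-111167120, plus strand: tgtatATTTAttttctgcttATTTAatgtc
PMAIP1, chr18:59903967-59903996, plus strand: aattttATTTAttttgcctATTTAtaatta
The letters do not order the shares: BBC3 had no match and a T>C share above that of MCL1 and BCL2. No other gene of the same strand overlapped a member's most read entry in GENCODE 44. Among the counted 3′ UTR entries, that of MCL1 shared 2 bases with the entry of a neighbouring gene, which held 10 reads over the 6 libraries. Multimapped reads were at most 2.36% of a member's reads (BAK1).

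T>C reads were lower with C646 over most genes, and the family is given against that background. The RNA came from bulk cells, so fewer cells with a transcript and less of it per cell cannot be told apart, and all levels are relative to the other reads of a library. Over the 7722 genes tested the median log2 fold change of T>C reads was -0.83, with 33.0% of genes called lower and 2.97% called higher. In all reads 1.88% of 10851 genes were called lower and 5.89% higher, around a median log2 fold change of -0.0030. Of the 10 members, 8 passed the filter on low counts in T>C reads: BCL2 and BBC3 were called lower, BCL2A1 was called higher, PMAIP1 rose without reaching the fold limit, and 4 did not pass the test. At an adjusted p of at most 0.01 alone the background was 38.0% lower and 3.83% higher. BAX and BAK1 did not pass the filter, BCL2L1 passed it only through its DMSO libraries, and BCL2A1 mainly through its C646 libraries, so counts over these 8 are a description. The median log2 fold change of the 8 was -0.69, beside -0.83 for all genes tested. Taking the TMM factors from the T>C reads themselves, which sets the median of all genes to -0.00060, turned the log2 fold changes of MCL1 (0.74), BCL2L11 (0.078) and BID (0.20) positive and left neither BCL2 nor BBC3 past the threshold.

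**Figure D2:**
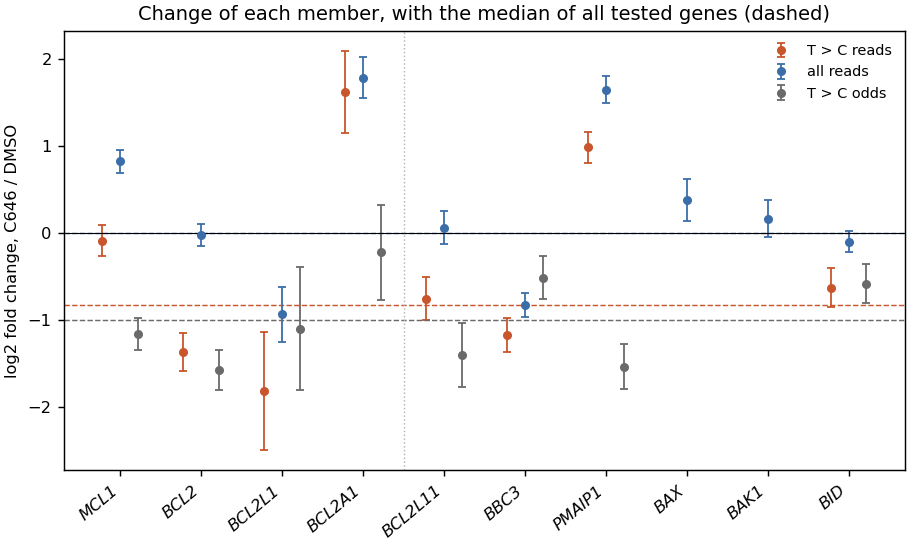
Log2 fold change of C646 over DMSO for each member in T>C reads, all reads and T>C odds, with standard errors from edgeR (3 libraries per group). Dashed lines mark the medians of all genes tested, -0.83 for T>C reads, -0.0030 for all reads and -1.004 for T>C odds. BAX and BAK1 have points for all reads only.

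MCL1 gained total mRNA while its T>C reads did not change detectably. In all reads it stood at 120, 118 and 127 CPM in the DMSO libraries and at 192, 219 and 235 CPM in the C646 libraries. All C646 libraries lay above all DMSO libraries, and the gene rose 1.77-fold (log2 fold change 0.83 ± 0.13 SE, adjusted p = 0.000499, edgeR). In T>C reads the libraries held 34.1, 31.8 and 35.5 CPM with DMSO and 25.3, 33.3 and 36.6 CPM with C646. These ranges overlapped, and the log2 fold change of -0.089 ± 0.18 did not pass the test (adjusted p = 0.686, edgeR). That value lay 0.74 above the median of all genes tested, and the gene rose when the T>C reads were scaled by themselves (log2 fold change 0.74, adjusted p = 0.00133, edgeR). MCL1 reads without a conversion went from 88.0 ± 3.44 to 184 ± 16.0 CPM, a ratio of 2.09.

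BCL2, the target of venetoclax, showed the opposite combination. Its T>C reads fell from 20.2, 23.3 and 19.3 CPM with DMSO to 8.87, 8.71 and 6.75 CPM with C646. The groups did not overlap, and the change was 2.59-fold (log2 fold change -1.37 ± 0.22, adjusted p = 6.31e-06, edgeR), which is -0.54 relative to the median of all genes. In all reads the gene stayed between 92.6 and 99.3 CPM with DMSO and 89.5 and 97.7 CPM with C646, with a log2 fold change of -0.025 ± 0.13 (adjusted p = 0.895, edgeR). With the T>C reads scaled by themselves the log2 fold change was -0.53 and missed the threshold (adjusted p = 0.0615, edgeR).

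BCL2L1, which encodes BCL-XL, was close to the limit of detection in T>C reads. Its T>C reads numbered 15, 10 and 10 with DMSO and 5, 4 and 1 with C646. Every C646 library lay below every DMSO library in CPM, but the log2 fold change of -1.82 ± 0.68 did not pass the test (adjusted p = 0.0242, edgeR). In all reads it had 6.97, 11.1 and 6.88 CPM with DMSO and 4.37, 5.52 and 3.18 CPM with C646, again without overlap and without passing the test (log2 fold change -0.93 ± 0.32, adjusted p = 0.0369, edgeR).

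BCL2A1, the BFL-1 gene and a known target of NF-kB, rose in both kinds of reads from a low level. Its all reads were 7.92, 4.44 and 6.61 CPM with DMSO and 22.1, 21.2 and 22.9 CPM with C646. The groups were well apart and the rise was 3.46-fold (log2 fold change 1.79 ± 0.23, adjusted p = 0.00011, edgeR). Its T>C reads numbered 18, 9 and 5 with DMSO and 34, 22 and 49 with C646, which is a mean of 1.27 ± 0.613 against 4.02 ± 1.16 CPM (SD, n = 3). They rose 3.08-fold (log2 fold change 1.62 ± 0.47, adjusted p = 0.00471, edgeR), and every C646 library was above every DMSO library. This T>C call was lost without C646 replicate 1 (adjusted p = 0.0120), C646 replicate 3 (0.0186), DMSO replicate 2 (0.0186) or DMSO replicate 3 (0.0330), and the rise in all reads passed the test in each of the 6 fits that leave out a library.

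PMAIP1 was the only BH3-only gene of the 10 members that rose. Its all reads went from 26.7, 33.7 and 35.1 CPM with DMSO to 90.2, 101 and 108 CPM with C646, a 3.14-fold rise (log2 fold change 1.65 ± 0.15, adjusted p = 5.52e-06, edgeR). Its T>C reads went from 17.6, 22.9 and 25.9 CPM to 37.5, 45.9 and 47.7 CPM. The groups were apart on both measures, and the T>C reads rose 1.98-fold (log2 fold change 0.99 ± 0.18, adjusted p = 5.04e-05, edgeR), just under the fold limit and 1.81 above the median of all genes. The limit was reached without C646 replicate 1, DMSO replicate 2 or DMSO replicate 3, with log2 fold changes of up to 1.12. With C646, PMAIP1 was first among the members in T>C reads with 43.7 ± 5.45 CPM and followed MCL1 and BID in all reads with 99.8 ± 8.92 CPM, where its range overlapped that of BCL2. Its reads without a conversion went from 9.69 ± 0.986 to 56.1 ± 3.72 CPM, a ratio of 5.79, which was the highest ratio of the 10 members on this measure.

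BBC3, known as a target of p53 and of FOXO3, fell in both kinds of reads. Its T>C reads were 32.3, 42.2 and 35.6 CPM with DMSO and 14.0, 13.6 and 20.9 CPM with C646. They fell 2.25-fold (log2 fold change -1.17 ± 0.20, adjusted p = 1.29e-05, edgeR) with no overlap between groups. Its all reads were 96.5, 121 and 106 CPM with DMSO and 63.0, 57.7 and 62.0 CPM with C646. These were also apart, and fell 1.77-fold (log2 fold change -0.83 ± 0.14, adjusted p = 0.000696, edgeR), which made BBC3 the only member to fall in all reads. Relative to the median of all genes its T>C change was -0.34, and with T>C reads scaled by themselves its log2 fold change of -0.35 did not pass the test (adjusted p = 0.172, edgeR).

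BCL2L11 and BID had lower T>C reads with C646 in every library but did not pass the test, in T>C reads or in all reads. BCL2L11 held 15.2, 10.0 and 11.3 CPM of T>C reads with DMSO and 7.28, 6.87 and 7.55 CPM with C646. No libraries overlapped, yet the log2 fold change of -0.76 ± 0.24 fell just short of the threshold (adjusted p = 0.0103, edgeR) and was 0.073 above the median of all genes. It passed without DMSO replicate 2 (adjusted p = 0.00908), with a minimum of 50 T>C reads (0.00843) and with plain totals of all reads (0.00867), and without DMSO replicate 1 its log2 fold change was -0.56 (adjusted p = 0.118, all edgeR). Its all reads were 26.0, 17.6 and 25.6 CPM with DMSO and 23.3, 24.7 and 24.4 CPM with C646 (log2 fold change 0.063 ± 0.19, adjusted p = 0.827, edgeR). BID held 14.6, 18.0 and 14.3 CPM of T>C reads with DMSO and 8.21, 12.3 and 9.73 CPM with C646 (log2 fold change -0.63 ± 0.23, adjusted p = 0.0190, edgeR). In all reads BID was at 145 ± 0.548 and 135 ± 7.29 CPM (log2 fold change -0.098 ± 0.12, adjusted p = 0.579, edgeR).

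The effectors BAX and BAK1 gave too few T>C reads for a comparison. BAX had 2, 8 and 4 T>C reads with DMSO and 1, 4 and 5 with C646, and BAK1 had 9, 10 and 5 against 7, 4 and 11. Without the filter their log2 fold changes were -0.66 ± 1.09 and -0.24 ± 0.76, errors too wide to show a change of the size seen for BCL2. In all reads BAX was at 8.87, 17.8 and 11.5 CPM with DMSO and 15.2, 17.3 and 16.7 CPM with C646 (log2 fold change 0.38 ± 0.24, adjusted p = 0.253, edgeR). BAK1 was at 12.7, 15.5 and 12.4 CPM with DMSO and 13.2, 13.5 and 18.6 CPM with C646 (log2 fold change 0.17 ± 0.21, adjusted p = 0.589, edgeR). The groups overlapped for both genes.

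Counted over the family, all reads of MCL1, BCL2A1 and PMAIP1 rose, those of BBC3 fell and those of the other 6 members did not pass the test. The background at an adjusted p of at most 0.01 was 9.82% higher and 6.28% lower. In CPM of T>C reads 5 of the 8 members tested had all C646 libraries below all DMSO libraries, where 55.8% of all genes tested did, and 2 of the 8 had them above, where 6.46% did. BCL2L1, among those below, passed the low-count filter only through its DMSO libraries. BCL2A1, among those above, passed it mainly through its C646 libraries, so these counts over the 8 are a description. In all reads 3 of 10 lay fully below (BCL2L1, BBC3 and BID) and 3 fully above (MCL1, BCL2A1 and PMAIP1), against 23.1% and 24.5% of the genes tested.

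The T>C share of a gene needs no scaling between libraries, and with C646 its group mean was lower for each of the 10 members, with overlap between groups for 5 of them and a mean log2 ratio for BCL2A1 that changed sign without DMSO replicate 1, DMSO replicate 2 or C646 replicate 2. The other 5 had every C646 library below every DMSO library (MCL1, BCL2, BCL2L11, PMAIP1 and BID), all of them among the 8 tested, and 0 had every one above, while 64.5% of all genes tested lay below and 2.16% above. The median over the 2843 well-covered genes was 7.97% with C646. The share of PMAIP1 was 66.0, 67.9 and 73.8% with DMSO and 41.6, 45.2 and 44.2% with C646. That of BCL2L11 was 58.5, 56.7 and 44.2% against 31.2, 27.9 and 30.9%. MCL1 went from 28.5, 26.9 and 27.8% to 13.1, 15.2 and 15.5%, and BCL2 from 21.8, 23.5 and 20.7% to 9.08, 9.40 and 7.55%. BID went from 10.0, 12.5 and 9.89% to 5.78, 8.98 and 7.63%. BBC3 differed, since its shares of 33.5, 34.8 and 33.5% with DMSO were met by 22.3, 23.6 and 33.7% with C646, where C646 replicate 3 lay inside the DMSO range.

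In the test of the odds that a read carries a conversion, 4 of the 8 members were called lower: BCL2 (log2 odds ratio -1.57 ± 0.23, adjusted p = 7.49e-06), PMAIP1 (-1.54 ± 0.26, adjusted p = 3.11e-05), BCL2L11 (-1.40 ± 0.37, adjusted p = 0.00228) and MCL1 (-1.16 ± 0.18, adjusted p = 1.51e-05, all edgeR). Of all genes tested 38.3% were called lower and 0.790% higher, around a median of -1.004. At an adjusted p of at most 0.01 alone the background was 44.8% lower and 1.14% higher, and the same 4 members passed. The odds were higher for 0 members in edgeR at that limit, and for 0 at an unadjusted p under 0.05. The 4 that did not pass were BCL2L1 (-1.10 ± 0.71), BID (-0.58 ± 0.23), BBC3 (-0.51 ± 0.25, adjusted p = 0.0726, edgeR) and BCL2A1 (-0.22 ± 0.55). BBC3 passed without C646 replicate 3 (adjusted p = 0.00693), and BCL2L11 was lost without DMSO replicate 1 (0.0277) or DMSO replicate 2 (0.0189, all edgeR).

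**Figure D3:**
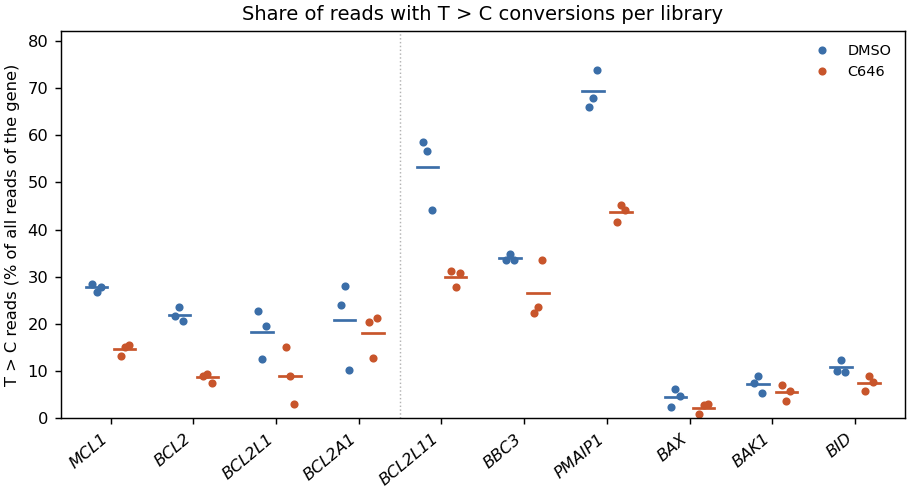
T>C reads as a percentage of all reads of each member, with 1 point per library, 3 libraries per group and bars at the group means. With DMSO the BH3-only genes PMAIP1 (69.3%) and BCL2L11 (53.1%) are highest, and the C646 libraries lie below the DMSO libraries for 5 of the 10 members.

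The 5 genes whose T>C shares over the 6 libraries were closest to those of MCL1 (Euclidean distance in percentage points, genes averaging 50 or more T>C reads a library) were TP53RK at 2.30, PBX3 at 2.86, MYB at 3.25, MRM2 at 3.41 and GSE1 at 4.04. The T>C share of TP53RK was 28.8% with DMSO and 14.7% with C646, beside 27.7% and 14.6% for MCL1. In all reads GSE1 had a log2 fold change of 0.81 (adjusted p = 0.00192, edgeR), PBX3 of 0.33 (0.0516), TP53RK of -0.047 (0.819), MYB of -0.29 (0.134) and MRM2 of -0.80 (0.0010).

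Whether survival or death genes moved more was compared within each library. The log2 ratio of summed T>C reads, anti-apoptotic over pro-apoptotic, was -0.49, -0.73 and -0.64 with DMSO and -0.79, -0.82 and -0.86 with C646. Every C646 library lay below every DMSO library, with a difference of -0.20 between the means. In all reads the same ratio was -0.48, -0.59 and -0.52 with DMSO and -0.13, -0.052 and -0.025 with C646. There the C646 libraries were higher, with a difference of 0.46, opposite in sign to the difference in T>C reads. Counted as T > C conversions in place of T>C reads the difference was -0.12 and the groups overlapped. Without MCL1 the differences were -0.74 in T>C reads and 0.052 in all reads. These ratios are sums over chosen genes and were not tested.

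The shift rested on few genes (the plots of ratios within a library). PMAIP1 held 15.2 ± 2.57% of the family's T>C reads with DMSO and 35.6 ± 1.02% with C646, while BBC3 went from 25.1 ± 2.16 to 13.1 ± 2.23% and BCL2 from 14.3 ± 0.972 to 6.74 ± 1.65%. MCL1 held 23.3 ± 2.19 and 25.7 ± 1.88% of them. In all reads the share of MCL1 went from 21.6 ± 1.13 to 31.3 ± 2.16% and that of PMAIP1 from 5.62 ± 0.638 to 14.5 ± 0.835%. The summed T>C reads of the anti-apoptotic members were 57.4 ± 0.564 CPM with DMSO and 44.3 ± 4.54 CPM with C646, and those of the pro-apoptotic members 88.3 ± 7.40 and 78.4 ± 9.74 CPM. The summed all reads were 231 ± 3.71 and 336 ± 17.4 CPM for the anti-apoptotic and 334 ± 17.2 and 352 ± 5.03 CPM for the pro-apoptotic members.

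MCL1 and its partner PMAIP1 changed places in T>C reads. For each T>C read of PMAIP1 there were 1.93, 1.39 and 1.37 of MCL1 with DMSO and 0.675, 0.725 and 0.767 with C646. MCL1 led in all DMSO libraries and PMAIP1 in all C646 libraries, and the log2 ratio differed by -1.10 (0.63 ± 0.28 against -0.47 ± 0.092, SD, n = 3, two-sided exact permutation test, p = 0.1). That is the smallest p that 3 libraries against 3 allow, so the design cannot pass a threshold of 0.05 in this test. In all reads MCL1 stayed ahead, with ratios of 4.48, 3.51 and 3.63 with DMSO and 2.13, 2.16 and 2.18 with C646, and the log2 ratio differed by -0.83 (exact permutation test, p = 0.1).

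**Figure D4:**
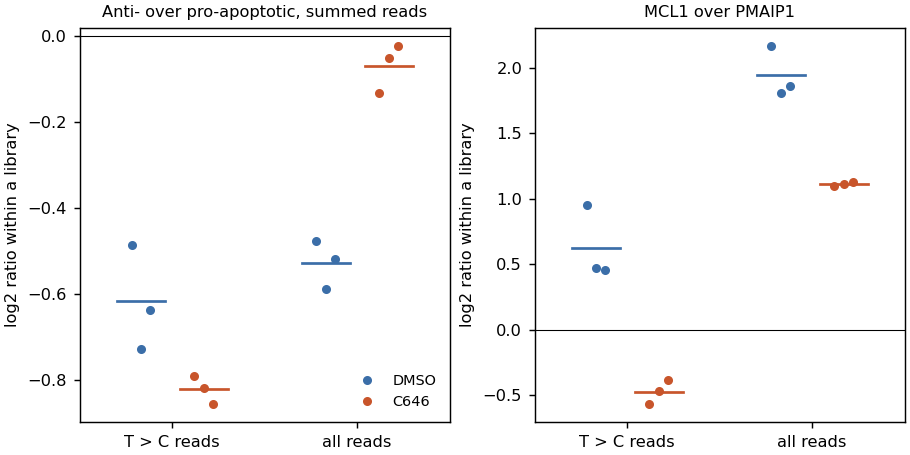
Log2 ratio within each library of summed anti-apoptotic over pro-apoptotic reads (left) and of MCL1 over PMAIP1 (right), for T>C reads and all reads, with 1 point per library, 3 libraries per group and bars at the means. With C646 the left ratio is lower in T>C reads (-0.82) and higher in all reads (-0.070) than with DMSO (-0.62 and -0.53), and the right ratio is below 0 in T>C reads only.

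Of 14 further genes of the family, 6 were tested in T>C reads: 2 were called lower, 1 was called higher and 3 did not pass the test, beside 33.0% called lower and 2.97% called higher over all genes tested. BIK and BMF, both BH3-only genes, fell from 3.71 to 0.528 and from 3.48 to 0.532 CPM of T>C reads (log2 fold changes -2.81 ± 0.55, adjusted p = 0.000102, and -2.72 ± 0.57, adjusted p = 0.000221, edgeR). Every C646 library of both lay under the low-count filter's cutoff of 1.27 CPM. They passed it only through their DMSO libraries, where they were higher, so the count of genes called lower here is a description. With TMM on the T>C reads BMF missed the threshold (adjusted p = 0.0131, edgeR), and with DESeq2's size factors from T>C reads both BMF (0.0371) and BIK (0.0202) did. BMF also fell in all reads, from 13.5 to 6.75 CPM (adjusted p = 0.00583, edgeR), while BIK did not pass there (-0.54, adjusted p = 0.0454). BCL2L13, a mitochondrial family member linked to mitophagy, rose from 13.8 to 34.0 CPM of T>C reads and from 47.4 to 114 CPM of all reads (log2 fold changes 1.30 ± 0.19 and 1.27 ± 0.14, adjusted p = 2.28e-06 and 3.16e-05, edgeR). BCL2L12 (log2 fold change 0.70), BNIP3 (0.20) and BNIP3L (-0.55) did not pass in T>C reads, although BCL2L12 rose there with TMM on the T>C reads (log2 fold change 1.51, adjusted p = 0.000212, edgeR), and BCL2L12 rose in all reads (0.59, adjusted p = 0.00849, edgeR). The rise of BCL2L12 in all reads was lost without any one of 5 of the 6 libraries, all but C646 replicate 1, and the fall of BMF in all reads without any one of 5, all but DMSO replicate 3. The median log2 fold change of the 6 in T>C reads was -0.18.

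Of 26 genes of the death machinery downstream of the family, 24 were tested in T>C reads: 8 fell, 6 of them called, and 0 rose, with a median log2 fold change of -0.67. Of all genes tested 38.0% fell, 33.0% were called lower and 3.83% rose, so the falls of this list lay near the background. DESeq2 gave 0 rises as well, and at an unadjusted p under 0.05 in edgeR there were 2. The 6 called were BIRC5 (survivin, log2 fold change -2.28 ± 0.31), VDAC2 (an outer membrane channel that binds BAK, -1.42 ± 0.21), CYCS (cytochrome c, -1.38 ± 0.17), FADD (the adaptor of death receptors, -1.35 ± 0.20), XIAP (an inhibitor of caspases, -1.21 ± 0.22) and DIABLO (which relieves that inhibition, -1.07 ± 0.32). They thus include inhibitors of apoptosis and genes that carry it out. With TMM on the T>C reads only BIRC5 of the 6 stayed past the threshold (adjusted p = 0.00045), while CYCS (0.0152), VDAC2 (0.0329), FADD (0.0492), XIAP (0.212) and DIABLO (0.596, all edgeR) did not. Under that scaling 3 genes of the list rose, beside 878 of the 7722 genes tested. DIABLO lost its call in 5 of the 6 fits that leave out a library, all but the fit without C646 replicate 2. In all reads 0 of 25 fell in edgeR, 2 fell in DESeq2 and 4 were lower at an unadjusted p under 0.05 in edgeR, and 3 rose in both, where 6.28% of all genes tested fell and 9.82% rose in edgeR. CASP8 rose from 3.22 to 15.0 CPM (log2 fold change 2.23 ± 0.39, adjusted p = 0.000882, edgeR) and APAF1 from 5.45 to 15.9 CPM. APAF1 lost its rise without DMSO replicate 1 (adjusted p = 0.0127, edgeR). With the replicate block 2 genes fell, BIRC5 (adjusted p = 0.00213) and VDAC3 (0.00802), and 5 rose, among them HTRA2 (0.00968) and CASP9 (0.00231, all edgeR). In that fit 1183 of the 10851 genes tested fell and 1470 rose. BIRC5 and VDAC3 also fell without the filter and in DESeq2.

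Of 11 genes that govern MCL1 turnover or transcription of the family, 10 were tested in T>C reads: 4 fell, 2 of them called, 1 rose and 5 did not pass, with a median log2 fold change of -0.72. These counts stand beside 38.0% that fell, 33.0% called lower and 3.83% that rose over all genes tested. FBXW7, which encodes a substrate receptor of the ubiquitin ligase that marks MCL1, fell from 21.0 to 4.45 CPM (log2 fold change -2.21 ± 0.26, adjusted p = 4.76e-08, edgeR), and CREB1 from 9.69 to 4.60 CPM (-1.07 ± 0.28, adjusted p = 0.00176, edgeR). CREB1 lost its call without DMSO replicate 2 (adjusted p = 0.0158), with totals of all filtered reads (0.0131) and with TMM factors from T>C reads (log2 fold change -0.24, adjusted p = 0.546, all edgeR), which left FBXW7 as the only regulator that fell. The gene that rose was DDIT3, which encodes the stress factor CHOP, and it is named here after its values were seen, with 7.43 CPM of T>C reads with DMSO and 14.7 with C646 (log2 fold change 0.99 ± 0.23, adjusted p = 0.000707, edgeR). In all reads 0 of 11 fell and 2 rose in edgeR, where 6.28% of all genes tested fell and 9.82% rose. These were DDIT3 (log2 fold change 1.35, adjusted p = 0.000343) and STAT5A (0.98, adjusted p = 0.00253, both edgeR), the latter lost without DMSO replicate 2 (0.0122). DESeq2 gave 1 fall, and 2 genes were lower at an unadjusted p under 0.05 in edgeR. Neither FBXW7 (log2 fold change -0.60, adjusted p = 0.0152) nor CREB1 (-0.013, adjusted p = 0.960, edgeR) passed the test in all reads. FBXW7 passed it there with the replicate block (adjusted p = 0.00357), without the filter (0.00368), without DMSO replicate 3 (0.00985, all edgeR) and in DESeq2 (0.00791).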

How the data were processed

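SLAM-seq libraries of MOLM-13 cells (QuantSeq 3′ FWD, 3 per group) were deposited as 1 table per library, in which the authors had aligned reads to GRCh38 with SLAM-Dunk 0.4.1 at default settings and written raw read counts, T>C read counts, conversion counts and multimapped reads per 3′ UTR entry. The same deposited tables give CPM values relative to all filtered reads, used only to recover the number of filtered reads, and coverage of T positions (a signal), used for conversions per covered T. The deposited T>C read counts hold reads with any conversion, while the study tested reads with at least 2. The T content column was listed as 0 throughout 1 C646 library and was not used there.

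Counts were summed per Entrez identifier (25310 of 25420 matched a symbol) and tested with edgeR 4.0.16 (R 4.3.3): glmQLFit and glmQLFTest, filterByExpr, Benjamini-Hochberg adjustment over all genes tested, adjusted p at most 0.01 and, for calls, a log2 fold change of 1 or more in size. T>C reads were fitted with TMM-scaled totals of all reads as library sizes, all reads with TMM, and the T>C odds in a model with a library factor. The edgeR fits of T>C reads, all reads and T>C odds were tested on simulated data, and the other steps were not. In the simulation of the odds, reads without a conversion varied by sampling noise only. Replicates of a group differed beyond sampling noise (chi-square per degree of freedom 6.51 to 22.0), so no library was counted as deposited in duplicate. DESeq2 1.42.0, other scalings and filters, a replicate block and leaving out each library were alternatives.

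The members, lists and tests were chosen with earlier results of these data known. Named are all members, each tested gene of the other family members, the genes called in T>C reads in the death pathway and regulator lists (at most 6 of each), and the 5 genes closest to MCL1. Genes named for all reads alone (CASP8, APAF1, VDAC3, HTRA2, CASP9, STAT5A) and DDIT3, and CFLAR in the alternatives, were chosen after their values were seen. 1 gene of the death pathway list is counted but not reported here. GENCODE 44 served for annotation.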

Additional observations from a re-analysis of the deposited data

How the results depend on the processing

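The scaling decided most. TMM on the T>C reads took calls over all genes from 2548 lower and 229 higher (91.8% lower) to 613 and 699 (46.7% lower); DESeq2 with size factors from T>C reads gave 463 and 642. Under both, 0 members were called lower, 0 fell at the p limit alone, 2 were called higher (PMAIP1 and BCL2A1), and MCL1 turned to 0.74 and 0.72 and CFLAR to 0.77 and 0.75. Totals of all filtered reads (median of all genes -0.62 in T>C and 0.20 in all reads) left 1 member lower (BCL2) and 2 higher, and turned MCL1 in T>C reads to a value above 0 without a call. DESeq2 with size factors from all reads called 0 members higher, and only PMAIP1 (1) rose there and with a minimum of 50 T>C reads, which also called 0 higher; BCL2A1 has fewer reads than that minimum. For the anti- to pro-apoptotic ratio, leaving out MCL1 gave -0.74 in T>C and 0.052 in all reads, and the difference of median log2 fold changes -0.037 and 0.29. MCL1 over PMAIP1 differed by -0.83 in all reads and by -1.04 in conversions.

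Leaving out 1 library at a time gave 0 to 1 members called higher in T>C reads (0 without C646 replicate 3), 1 to 2 that rose and 2 called lower in each. Over the 7982 to 8352 genes tested in these fits, 206 to 263 were called higher, 237 to 306 rose and 1990 to 2603 were called lower. In odds 3 to 4 members were called lower, beside 2138 to 2949 of all genes. The differences were -0.26 to -0.14 (T>C) and 0.43 to 0.49 (all reads) for the ratio and -1.18 to -0.94 for MCL1 over PMAIP1. In shares 5 to 7 members had every C646 library below every DMSO library. This is easier to reach with 2 libraries in a group, and was not counted over all genes. The BCL2A1 share changed sign (log2 ratio 0.15 by conversions per covered T, 0.059 without DMSO replicate 1, 0.17 without DMSO replicate 2, 0.13 without C646 replicate 2; -0.56 without DMSO replicate 3, the lowest). The cause of these changes was not tested. Same-numbered libraries did not deviate together throughout (correlation 0.030 to 0.065 in T>C and -0.0014 to 0.23 in all reads), so the numbers were not taken as pairs; in T>C reads each library correlated best with its own number, in all reads not. With the replicate block, calls over all genes were 2586 lower and 226 higher in T>C reads and 232 and 700 in all reads, those at the p limit alone in all reads went from 681 and 1066 to 1183 and 1470, and no member changed its side of the threshold. BCL2L1, BAX and BAK1 had under 20 T>C reads in every library and BCL2A1 in every DMSO library, and the part of depth in their results was not tested.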

Other observations

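Reads without a conversion followed the members differently from T>C reads. Their ratio of C646 to DMSO was 5.79 for PMAIP1, 3.58 for BCL2A1, 2.09 for MCL1, 1.55 for BCL2L11, 1.33 for BAX, 1.15 for BCL2 and 1.14 for BAK1, against 0.970 for BID, 0.628 for BBC3 and 0.573 for BCL2L1. For BCL2L11 they went from 10.9 ± 3.33 to 16.9 ± 0.885 CPM (SD, n = 3), with all C646 libraries above all DMSO libraries, although its all reads overlapped between groups. These differences were not tested.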
